A study of Homo sapiens with 12 samples.

Results

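The genes described are 33 members of the NRF2 antioxidant programme: the transcription factor NRF2 (gene NFE2L2), 3 genes that bear on its activity, and 29 antioxidant, thioredoxin, NADPH, reductase, conjugation and export genes known as its targets. They were chosen by symbol, from a list, among the 20030 genes of the deposited table, and all 33 were found there. Of them 31 reached the level set for testing, 1 FPKM or more in 3 or more of 12 libraries. FPKM scales fragments or reads by the length of the gene model and by the mapped depth, so it can be compared between genes.

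The cells were HepG2, a hepatoma line of human origin, sequenced in 4 groups of 3 libraries. The cells received 8HQ together with FAC (8HQ_FAC), 8HQ alone, FAC alone, or only DMSO, a solvent. All groups carry the same label of 10 µM and 6 h, which does not say which agent the concentration refers to. The labels do not spell out the abbreviations; in iron research FAC usually means the iron salt ferric ammonium citrate, and 8HQ means 8-hydroxyquinoline, a metal binder able to bring iron into cells. Nothing in the labels tells whether replicate libraries are separate cultures, so p-values cover only the spread between these libraries, which may be technical. No genetic change is named in any group.

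NRF2 is held low in resting cells by KEAP1, an adaptor that hands it to a ubiquitin ligase for destruction. Oxidants and electrophiles modify KEAP1, NRF2 accumulates, pairs with small MAF proteins such as MAFG and binds antioxidant response elements near its target genes. The targets make glutathione, recycle thioredoxin and peroxiredoxins, supply NADPH, reduce quinones and carbonyls, and conjugate and export foreign compounds, work for which the liver is a main site. Because NRF2 is controlled mainly through protein stability, the NFE2L2 transcript is not a direct measure of its activity.

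The antioxidant response element has a core of TGACNNNGC, which was searched on both strands of the promoter windows that RefSeq gives for GRCh38.p14, from 250 bases before to 50 bases after each start. Windows were listed for 28 members, and the first-listed window of 9 held the core (ABCC4, CBR1, GCLM, GPX2, ME1, PGD, PIR, TXNRD1 and UNKL). The core was found in 13.6% of all 27305 windows and in 15.4% of the windows of 8950 tested genes. The longer form TGACTCAGC was in 2 members' windows (ME1 and PIR) and in 0.564% of all windows. The AP-1 element TGACTCA, whose letters make up part of that longer form, was in the windows of 4 members (ME1, OSGIN1, PIR and UNKL) and in 4.92% of all windows. A match shows only that these letters are present, and windows without them say nothing about more distant elements. KEAP1 and EPHX1 held the core only at another of their listed starts.

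The stretches below show the core, in capitals, of members whose values are given further on, each read 5′ to 3′ on the gene's strand with up to 30 bases on either side. Where the element lies on the opposite strand the capitals are its reverse complement. GCLM and TXNRD1 are shown because both rose strongly with 8HQ alone, while with FAC added GCLM stayed above DMSO and TXNRD1 was not called, UNKL and CBR1 as further called members, and ME1 as a gene with an exact long element that was almost silent in these cells.
GCLM, chr1:93909431-93909494, minus strand, core at positions -34 to -26: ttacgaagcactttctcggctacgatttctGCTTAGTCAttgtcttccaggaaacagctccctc
TXNRD1, chr12:104215650-104215718, plus strand, core at positions -99 to -91: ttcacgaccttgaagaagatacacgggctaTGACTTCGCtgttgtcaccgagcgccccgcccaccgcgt
UNKL, chr16:1379700-1379768, minus strand, core at positions -86 to -78: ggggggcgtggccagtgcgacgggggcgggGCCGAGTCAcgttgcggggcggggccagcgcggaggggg
CBR1, chr21:36069835-36069903, plus strand, core at positions -159 to -151: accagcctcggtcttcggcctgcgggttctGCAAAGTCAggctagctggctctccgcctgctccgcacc
ME1, chr6:83431150-83431218, minus strand, core at positions -137 to -129: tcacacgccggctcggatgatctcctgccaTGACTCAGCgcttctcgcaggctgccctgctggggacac

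The libraries differed in ways that touch mainly the comparisons with 8HQ_FAC. The 8HQ_FAC libraries were the shallowest, near 15200000 to 16600000 reads as estimated from the spacing of low values, against 18100000 to 19700000 reads in the others. Their FPKM summed to 419275 to 427192, against 335508 to 346915 in the other libraries. The median tested gene was lower by 0.23 on the log2 scale in 8HQ_FAC than in DMSO. Directions in 8HQ_FAC were therefore also read after 4 other scalings. These were quantile normalization, centring on the median, rescaling to equal sums, and removing the trend with transcript length. The lengths were those of each gene's longest GENCODE transcript, not of the gene models behind the FPKM, which are not known. They differ even between related genes, at 6705, 3756 and 1807 bases for AKR1C1, AKR1C2 and AKR1C3. Those scalings moved the median of all tested genes in 8HQ_FAC against DMSO to between -0.50 and 0.18, and the share of its calls that were higher to 49.8%, 63.3%, 15.7% and 50.8% in that order, from 32.7% as deposited. In FAC against DMSO the same shares were 51.5%, 59.0%, 38.3% and 50.1%, with 46.0% as deposited, and in 8HQ against DMSO 47.3%, 46.6%, 47.6% and 37.9%, with 50.8% as deposited. In 8HQ_FAC against FAC they were 49.7%, 62.6%, 15.6% and 51.7%, with 32.4% as deposited, in 8HQ_FAC against 8HQ 49.6%, 62.3%, 15.4% and 50.6%, with 31.7% as deposited, and in the interaction 49.1%, 62.3%, 14.0% and 51.5%, with 30.5% as deposited.

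All 10 hepatocyte and HepG2 markers were above 0 in every library, and their FPKM summed to 23506 ± 363 in 8HQ_FAC, 14809 ± 32.5 in 8HQ, 16767 ± 227 in FAC and 15169 ± 117 in DMSO (SD, n = 3 each). In 8HQ_FAC against DMSO 8 were called higher and 2 lower, beside 27.5% and 56.7% of all tested genes. After quantile normalization 4 were called higher and 5 lower. HNF4A and APOB fell, with means of 29.5 and 755 FPKM in 8HQ_FAC, against 79.5 and 1660 FPKM in DMSO. A list of 16 leukocyte, Kupffer cell and red cell markers had 7 or 8 above 0 in the 8HQ_FAC libraries, 13 to 15 in 8HQ, 6 to 9 in FAC and 12 to 15 in DMSO. Their sum without LYZ, which HepG2 cells express highly, was 49.1 to 52.8 FPKM in 8HQ_FAC, 42.0 to 78.1 in 8HQ, 29.8 to 35.2 in FAC and 37.0 to 53.8 in DMSO. HBB, TYROBP and CD3E, which define red cells, myeloid cells and T cells, had values above 0 in each 8HQ and DMSO library and were listed at 0 wherever FAC was given. CD163, a further myeloid marker, did the same, with means of 0.0736 FPKM in DMSO and 0.0638 FPKM in 8HQ. PTPRC and HBA2 came close, with means of 0.0055 and 0 FPKM in FAC, and 0 and 0.0345 FPKM in 8HQ_FAC. Their DMSO means were 0.149 and 1.66 FPKM. Some other red cell and myeloid markers of the list did not follow this pattern. In 8HQ_FAC the means of HBA1, ITGAM and CD68 were 1.73, 0.397 and 43.7 FPKM, against 0.525, 0.0763 and 31.2 FPKM in DMSO. Of 8 stellate and endothelial markers 6 or 7 were above 0 in 8HQ_FAC, 7 in 8HQ, 6 or 7 in FAC and 7 or 8 in DMSO, with sums of 51.6 to 54.8, 35.5 to 36.6, 47.0 to 51.0 and 35.5 to 35.9 FPKM in that order. Between groups with and without FAC these differences cannot be told apart from the treatment. Within 8HQ against DMSO the marker counts overlapped.

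The programme was high in 8HQ and mixed wherever FAC was present. The mean level was highest in 8HQ for 18 of the 31 tested members, in 8HQ_FAC for 9, in FAC for 3 and in DMSO for 1, NFE2L2 itself. No member was lowest in 8HQ, while 10 were lowest in 8HQ_FAC, 8 in FAC and 13 in DMSO. These ranks use the deposited values and were not counted over all tested genes. The place of 8HQ_FAC depends on the scaling. Members called higher in 8HQ_FAC than in 8HQ ran from 4 after rescaling to equal sums to 16 after median centring. The median coefficient of variation between libraries of a group was 4.73% in 8HQ_FAC, 2.05% in 8HQ, 2.41% in FAC and 2.39% in DMSO. ME1, the cytosolic malic enzyme that makes NADPH, was at most 0.0388 FPKM in any library and above 0 in only 4 of the 12. TRIM16L, a near copy of TRIM16 with which reads may be shared, stood at 0.969, 1.34 and 1.13 FPKM in 8HQ_FAC, 0.621 to 0.703 in 8HQ, 0.698 to 0.943 in FAC and 0.586 to 0.736 in DMSO. Neither was tested.

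**Figure D1:**
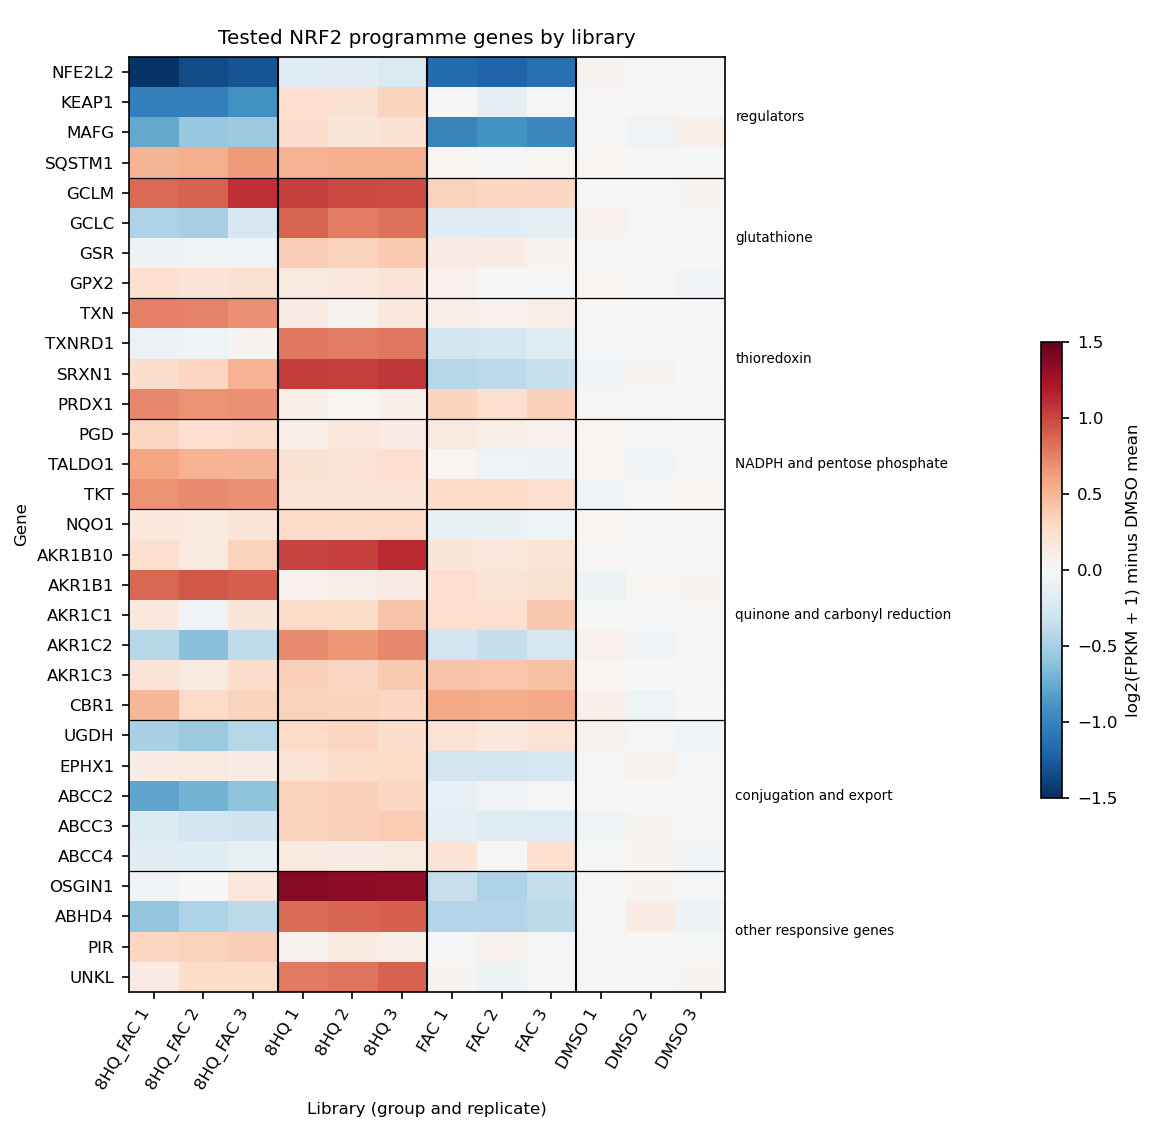
Levels of the 31 tested members in each library as log2(FPKM + 1) minus the mean of the DMSO libraries, with genes grouped by role down the page and libraries by group across it. Red is above and blue below the DMSO mean; the 8HQ columns are red for nearly all genes except NFE2L2, while the 8HQ_FAC columns hold red TXN, TKT and TALDO1 beside blue NFE2L2, KEAP1, UGDH and ABCC2.

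With 8HQ alone nearly the whole programme rose. Of the 31 tested members 25 were called higher, 1 was called lower and 5 were not called in 8HQ against DMSO, when 2.49% of all 10823 tested genes were called higher and 2.41% lower. The members were chosen with earlier results of these data known, so this contrast is descriptive and no test of the programme. Calls were made by limma on log2(FPKM + 1) at a Benjamini-Hochberg adjusted p under 0.05 over all tested genes. The median member changed by 0.33 and the median tested gene by 0.01 on the log2 scale. The 8HQ and DMSO libraries did not overlap in any of the 31, which was true of 26.1% of all tested genes. No member changed direction under the 4 other scalings, and 24 of the 25 rises were called under each of them. How many of all tested genes kept their calls under each scaling was not counted, here or in the later comparisons.

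Among the regulators, NFE2L2 was the only member that fell with 8HQ. It stood at 95.4, 97.0 and 94.1 FPKM in 8HQ, against 113, 108 and 107 FPKM in DMSO. All 8HQ libraries lay below all DMSO libraries, and the log2 change was -0.19 ± 0.04 (SE, adjusted p = 0.0119). The call was lost without DMSO replicate 1 or without 8HQ replicate 3, at changes of -0.17 and -0.18. KEAP1 was higher, at 37.4, 36.8 and 39.6 FPKM in 8HQ, against 31.0, 31.6 and 31.0 FPKM in DMSO (log2 change 0.27 ± 0.05, adjusted p = 0.00294). MAFG was at 32.1, 30.3 and 31.3 FPKM in 8HQ, against 26.2, 25.7 and 28.1 FPKM in DMSO, a change of 0.22 ± 0.06 whose adjusted p of 0.0311 was lost when any of 5 libraries was left out (DMSO replicates 1 and 2 and each 8HQ replicate). SQSTM1 encodes p62, which binds KEAP1 and takes it to autophagy. It rose to 144, 147 and 147 FPKM in 8HQ, against 102, 98.8 and 99.7 FPKM in DMSO, a change of 0.54 ± 0.03 (adjusted p = 5.27e-08).

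All 4 glutathione genes rose with 8HQ. GCLM, the modifier subunit of glutamate-cysteine ligase, which sets the rate of glutathione synthesis, had 14.3, 13.9 and 13.8 FPKM in 8HQ, against 6.46, 6.37 and 6.73 FPKM in DMSO. On the log2(FPKM + 1) scale this was a change of 1.0 ± 0.05, or 1.99-fold (adjusted p = 4.03e-08). GCLC, the catalytic subunit, had 83.0, 77.1 and 80.6 FPKM in 8HQ, against 46.9, 44.0 and 43.9 FPKM in DMSO (0.82 ± 0.05, adjusted p = 1.96e-07). The change was smaller in GSR, which reduces oxidised glutathione, at 0.37 ± 0.03, and in GPX2, a glutathione peroxidase, at 0.16 ± 0.03 (adjusted p = 1.79e-06 and 0.0026). The GPX2 call was lost under quantile normalization, at 0.09 (limma adjusted p = 0.0555).

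In the thioredoxin arm the recycling enzymes TXNRD1 and SRXN1 rose with 8HQ, while PRDX1 was not called and the call of TXN depended on the scaling. TXNRD1, thioredoxin reductase, had 152, 149 and 151 FPKM in 8HQ, against 86.4, 86.7 and 88.4 FPKM in DMSO (log2 change 0.78 ± 0.03, adjusted p = 3.20e-09). SRXN1, sulfiredoxin, which restores overoxidised peroxiredoxins, had 132, 130 and 134 FPKM in 8HQ, against 61.4, 65.0 and 62.8 FPKM in DMSO (1.05 ± 0.05, adjusted p = 6.46e-09). Both genes thus stood far outside the spread of either group. Thioredoxin itself, TXN, was at 196 ± 8.79 FPKM in 8HQ and 181 ± 1.81 FPKM in DMSO (SD, n = 3 each), a change of 0.11 with a 95% interval of 0.04 to 0.17 that missed the adjusted threshold in limma (adjusted p = 0.0564). It was called after quantile normalization, after scaling all sums alike and without the length trend (limma adjusted p = 0.0176, 0.0331 and 0.0316) and not after median centring (0.105), with changes of 0.10 to 0.11. The peroxiredoxin PRDX1 changed by 0.06 with an interval of 0.00 to 0.12 (limma adjusted p = 0.262).

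The 3 tested pentose phosphate enzymes, which supply NADPH and rearrange sugars, rose by small amounts. TALDO1, transaldolase, changed by 0.23 ± 0.03, TKT, transketolase, by 0.21 ± 0.03, and PGD, 6-phosphogluconate dehydrogenase, by 0.13 ± 0.03 on the log2 scale, with limma adjusted p of 0.000975, 0.000242 and 0.0227. The PGD call was lost without DMSO replicate 2 or 3 or without 8HQ replicate 2 or 3.

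Of 7 reductases of quinones and carbonyls 6 rose. The aldo-keto reductase AKR1B10, which reduces retinal and reactive aldehydes, had 61.2, 61.9 and 66.0 FPKM in 8HQ, against 30.4, 30 and 29.3 FPKM in DMSO (log2 change 1.05 ± 0.04, adjusted p = 1.95e-09). Its relative AKR1B1, aldose reductase, was not called, at 47.1 ± 1.01 FPKM in 8HQ and 44.1 ± 2.04 FPKM in DMSO (SD, n = 3 each; change 0.09, 95% interval 0.02 to 0.17). The classical marker NQO1, a quinone reductase, was abundant throughout and changed by 0.28 ± 0.02, at 333 ± 1.16 FPKM in 8HQ and 273 ± 5.6 FPKM in DMSO. AKR1C1, AKR1C2 and AKR1C3, which reduce steroids and carbonyls, changed by 0.33, 0.70 and 0.35. These 3 genes are near-identical in sequence and their reads could be split between them; their sum was 573 ± 24.1 FPKM in 8HQ and 433 ± 7.29 FPKM in DMSO. CBR1, a carbonyl reductase, changed by 0.33 ± 0.05.

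Of 5 conjugation and export genes 4 rose. UGDH, which makes the glucuronic acid donor, EPHX1, an epoxide hydrolase, and the export pumps ABCC2 and ABCC3 changed by 0.29, 0.26, 0.34 and 0.36, and the pump ABCC4 by 0.13 with an interval of -0.01 to 0.26. The member that rose most was OSGIN1, an oxidative-stress-induced growth inhibitor, with 99.3, 97.3 and 96.6 FPKM in 8HQ, against 37.2, 38.9 and 37.5 FPKM in DMSO (log2 change 1.35 ± 0.05, adjusted p = 6.63e-10). The lipid hydrolase ABHD4 had 46.1, 47.3 and 48.0 FPKM in 8HQ, against 24.8, 27.5 and 24.1 FPKM in DMSO (0.86 ± 0.05, adjusted p = 7.02e-08). UNKL, a zinc-finger gene, changed by 0.83 ± 0.05, and PIR, pirin, by 0.09 with an interval of 0.01 to 0.17, which was not called.

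**Figure D2:**
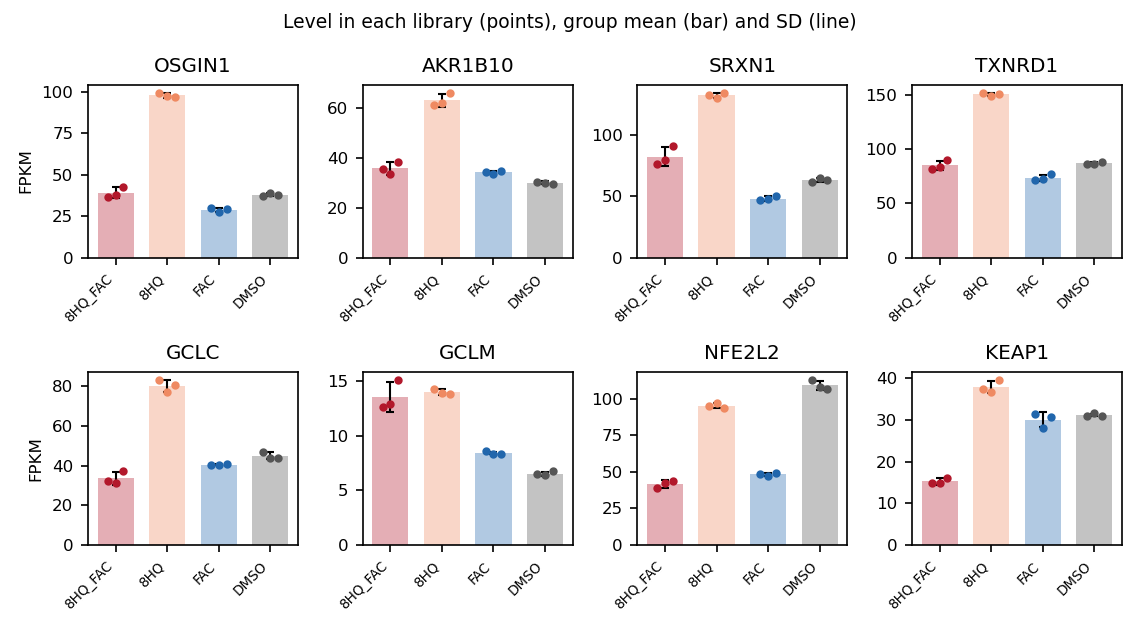
FPKM of 8 members in each library (points), with the group mean (bar) and SD over 3 libraries (line), groups from left to right 8HQ_FAC, 8HQ, FAC and DMSO. OSGIN1, AKR1B10, SRXN1, TXNRD1 and GCLC stand highest in 8HQ, GCLM is about as high in 8HQ_FAC (mean 13.5) as in 8HQ (mean 14.0), NFE2L2 is low in both groups with FAC, and KEAP1 is low only in 8HQ_FAC (mean 15.3).

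FAC alone lowered the transcripts of the NRF2 pair and moved the targets both ways. In FAC against DMSO 12 members were called higher, 11 lower and 8 not called, when 24.8% of all tested genes were called higher and 29.2% lower, and the median member changed by 0.01 against -0.01 for all tested genes. The groups did not overlap for 24 members, beside 61.4% of all tested genes. Of these calls 9 rises and 9 falls were called under each of the 4 scalings as well.

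NFE2L2 fell to 48.5, 47.0 and 49.3 FPKM in FAC, against 113, 108 and 107 FPKM in DMSO. That is less than any DMSO library by a wide margin and a log2 change of -1.16 ± 0.04 (adjusted p = 7.57e-12). MAFG, its binding partner, fell to 12.9, 13.9 and 13 FPKM in FAC, against 26.2, 25.7 and 28.1 FPKM in DMSO (-0.96 ± 0.06, adjusted p = 2.74e-09). KEAP1 and SQSTM1 were not called, with changes of -0.05 (95% interval -0.15 to 0.04) and 0.02 (-0.05 to 0.08). The 4 scalings left the falls of NFE2L2 and MAFG between -1.23 and -0.91.

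Several targets that 8HQ raised were below DMSO in FAC. OSGIN1, SRXN1, ABHD4, AKR1C2, EPHX1 and TXNRD1 changed by -0.39, -0.39, -0.43, -0.30, -0.28 and -0.24, all called under each scaling. OSGIN1 had 28.7 ± 1.25 FPKM in FAC and 37.8 ± 0.905 FPKM in DMSO, and TXNRD1 had 73.6 ± 2.74 FPKM in FAC and 87.2 ± 1.08 FPKM in DMSO (SD, n = 3 each). Other targets were above DMSO. CBR1 rose most, with 18.9, 18.8 and 18.9 FPKM in FAC, against 13.1, 11.8 and 12.4 FPKM in DMSO (log2 change 0.56 ± 0.05, adjusted p = 2.63e-07). AKR1C3, GCLM, PRDX1, TKT and AKR1B1 changed by 0.43, 0.32, 0.31, 0.28 and 0.22, again called under each scaling. The AKR1C1, AKR1C2 and AKR1C3 sum was 519 ± 23.0 FPKM in FAC and 433 ± 7.29 FPKM in DMSO. TXN was called higher, by 0.08, but its change was -0.01 once the length trend was removed.

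In the 8HQ_FAC cells NFE2L2, KEAP1, MAFG, UGDH and the pump ABCC2 were low while SQSTM1, GCLM, AKR1B1, TXN, TKT and TALDO1 were high. Against DMSO 17 members were called higher, 11 lower and 3 not called, when 27.5% of all tested genes were called higher and 56.7% lower. The median member changed by 0.17 and the median tested gene by -0.23. Groups did not overlap for 28 members, beside 84.2% of all tested genes. Since these are bulk libraries, fewer cells of a type and less RNA per cell cannot be told apart. Under each of the 4 scalings 6 rises (AKR1B1, GCLM, SQSTM1, TALDO1, TKT and TXN) were called in the same direction. So were 5 falls (ABCC2, KEAP1, MAFG, NFE2L2 and UGDH). The share of all tested genes that kept a call in this way was not counted. The number of members called higher ran from 7 after rescaling to equal sums to 23 after median centring.

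NFE2L2 fell to 38.9, 42.6 and 43.9 FPKM in 8HQ_FAC, against 113, 108 and 107 FPKM in DMSO, a log2 change of -1.37 ± 0.04 (adjusted p = 1.00e-13; -1.69 to -0.95 over the scalings). KEAP1 fell to 14.8, 14.8 and 16.1 FPKM in 8HQ_FAC, against 31.0, 31.6 and 31.0 FPKM in DMSO, a change of -0.99 ± 0.05 (adjusted p = 1.53e-11; -1.3 to -0.57). Both were thus reduced beyond the spread of the libraries in every scaling, and KEAP1 moved the opposite way from its rise with 8HQ alone. MAFG had 15.2, 17.6 and 17.9 FPKM in 8HQ_FAC, against 26.2, 25.7 and 28.1 FPKM in DMSO (-0.63 ± 0.06; -0.94 to -0.21). SQSTM1 had 143, 147 and 156 FPKM in 8HQ_FAC, against 102, 98.8 and 99.7 FPKM in DMSO (0.56 ± 0.03; 0.24 to 0.98).

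The members that rose most against DMSO were GCLM, AKR1B1 and TXN. GCLM had 12.6, 12.9 and 15.1 FPKM in 8HQ_FAC, against 6.46, 6.37 and 6.73 FPKM in DMSO (log2 change 0.94 ± 0.05, adjusted p = 2.19e-10; 0.65 to 1.36 over the scalings). AKR1B1 had 81.3, 85.0 and 82.7 FPKM in 8HQ_FAC, against 41.8, 45.1 and 45.6 FPKM in DMSO (0.90 ± 0.03, adjusted p = 1.88e-12; 0.57 to 1.31). TXN had 307, 305 and 293 FPKM in 8HQ_FAC, against 183, 181 and 180 FPKM in DMSO (0.73 ± 0.03, adjusted p = 5.39e-12; 0.22 to 1.15). With 8HQ alone AKR1B1 was not called and TXN was called under 3 of the 4 scalings but not as deposited. No 8HQ_FAC library of any of the 3 overlapped DMSO. PRDX1, TKT and TALDO1 changed by 0.69, 0.69 and 0.54; the PRDX1 change was 0.03 under quantile normalization.

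ABCC2 and UGDH were the export and conjugation genes that fell under every scaling. ABCC2, the canalicular pump for conjugates, had 61.1, 64.7 and 70.0 FPKM in 8HQ_FAC, against 106, 106 and 108 FPKM in DMSO (log2 change -0.70 ± 0.04, adjusted p = 1.96e-10; -1.02 to -0.20 over the scalings). UGDH had 92.5, 88.3 and 96.7 FPKM in 8HQ_FAC, against 136, 128 and 127 FPKM in DMSO (-0.49 ± 0.04, adjusted p = 2.77e-09; -0.81 to -0.07). The remaining pumps moved little or changed sign: ABCC3 and ABCC4 were called lower, at -0.26 and -0.16, but were higher under 3 of the 4 scalings. OSGIN1 and TXNRD1, among the strongest rises with 8HQ alone, were not called in 8HQ_FAC against DMSO, at 0.04 (95% interval -0.07 to 0.14) and -0.03 (-0.11 to 0.04); the scalings put OSGIN1 between -0.28 and 0.45 and TXNRD1 between -0.36 and 0.38.

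**Figure D3:**
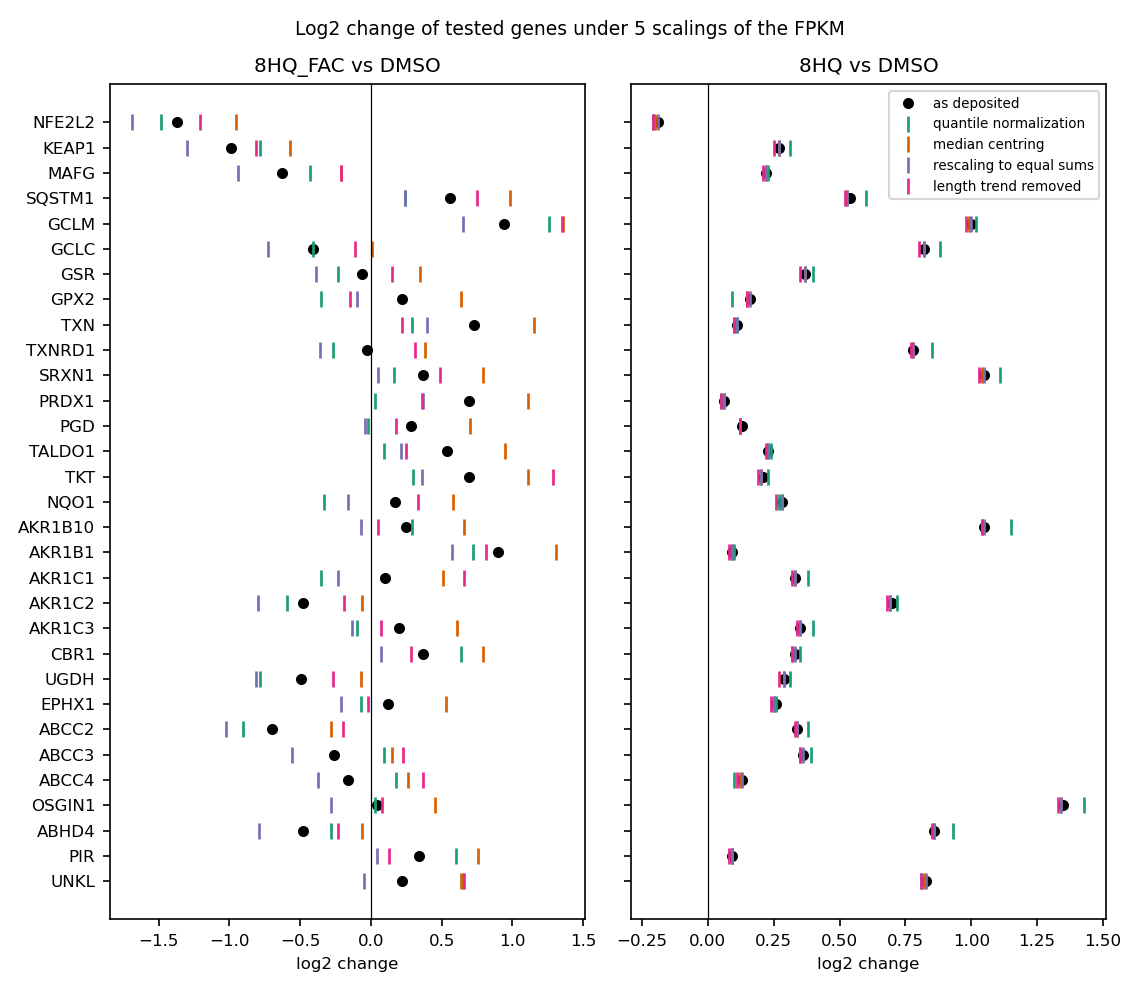
Log2 change of each tested member in 8HQ_FAC against DMSO (left) and in 8HQ against DMSO (right), as deposited (black points) and under 4 other scalings (coloured ticks). With 8HQ alone the ticks sit close to the points, as for OSGIN1 at 1.33 to 1.43, while in 8HQ_FAC they spread widely, as for GPX2 at -0.35 to 0.64, and only some genes stay on 1 side of the zero line.

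With FAC present in both groups, 8HQ raised part of the programme and lowered another. In 8HQ_FAC against FAC 17 members were called higher, 11 lower and 3 not called, when 26.8% of all tested genes were called higher and 56.0% lower; the medians were 0.20 for members and -0.22 for all tested genes. The groups did not overlap for 29 members, beside 83.6% of all tested genes. The 2 comparisons of 8HQ use different libraries. Of the 25 members called higher with 8HQ without FAC, 13 were called higher, 9 lower and 3 not called with 8HQ in its presence. The same split was not counted over all 270 tested genes called higher with 8HQ without FAC. It is therefore not read as particular to the members. Under each of the 4 scalings 9 were called higher with FAC present (AKR1B1, EPHX1, GCLM, OSGIN1, SQSTM1, SRXN1, TALDO1, TKT and TXN) and 3 lower (ABCC2, KEAP1 and UGDH).

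SRXN1 rose most in this setting, with 76.1, 79.3 and 90.7 FPKM in 8HQ_FAC, against 46.5, 47.6 and 49.8 FPKM in FAC (log2 change 0.76 ± 0.05, adjusted p = 1.25e-09; 0.47 to 1.13 over the scalings). GCLM had 12.6, 12.9 and 15.1 FPKM in 8HQ_FAC, against 8.55, 8.35 and 8.33 FPKM in FAC (0.62 ± 0.05; 0.35 to 0.99). OSGIN1 had 36.4, 37.7 and 42.8 FPKM in 8HQ_FAC, against 29.6, 27.3 and 29.3 FPKM in FAC (0.42 ± 0.05; 0.14 to 0.79). These 3 genes separated the groups without overlap, in the direction seen with 8HQ alone. SQSTM1 had 143, 147 and 156 FPKM in 8HQ_FAC, against 102, 99.5 and 102 FPKM in FAC, a change of 0.55 ± 0.03 that lay close to its 0.54 without FAC. TXNRD1 had 82.0, 83.6 and 89.8 FPKM in 8HQ_FAC, against 71.5, 72.6 and 76.7 FPKM in FAC, a called change of 0.21 that was -0.08 after rescaling to equal sums. AKR1B10 had 35.6, 33.3 and 38.2 FPKM in 8HQ_FAC, against 34.1, 33.6 and 34.7 FPKM in FAC; these overlapped and were not called (0.06, 95% interval -0.03 to 0.15), nor was ABHD4 at 16.7, 18.2 and 19.2 FPKM in 8HQ_FAC, against 18.5, 18.5 and 19.0 FPKM in FAC.

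For KEAP1, GCLC, UGDH, AKR1B10 and others the change with 8HQ was lower when FAC was present, and for TXN and AKR1B1 it was higher. The interaction, the change of 8HQ_FAC against FAC minus that of 8HQ against DMSO, was called lower for 18 members, higher for 7 and not called for 6, when 53.3% of all tested genes were called lower and 23.4% higher; the medians were -0.44 for members and -0.24 for all tested genes. The members' shares, 58.1% lower and 22.6% higher, lay near those of all tested genes, so the counts show nothing particular to the members. Under each of the 4 scalings 12 members were called lower (ABCC2, ABHD4, AKR1B10, AKR1C2, AKR1C3, GCLC, GSR, KEAP1, OSGIN1, TXNRD1, UGDH and UNKL) and 2 higher (AKR1B1 and TXN).

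KEAP1 had the most negative interaction, -1.21 ± 0.06 (adjusted p = 3.64e-10; -1.48 to -0.83 over the scalings). Its level was 14.8, 14.8 and 16.1 FPKM in 8HQ_FAC, against 31.4, 28.1 and 30.8 FPKM in FAC, so that it fell with 8HQ where FAC was present and rose where it was absent. GCLC followed at -1.08 ± 0.07 (adjusted p = 4.37e-09; -1.36 to -0.71), with 32.2, 31.4 and 37.4 FPKM in 8HQ_FAC, against 40.2, 40.3 and 40.8 FPKM in FAC. That last fall of GCLC, called at -0.26, was 0.11 after median centring, whereas its interaction kept its sign. AKR1B10 had an interaction of -0.99 ± 0.06 (adjusted p = 1.75e-09; -1.27 to -0.61). UGDH had one of -0.98 ± 0.05 (adjusted p = 2.11e-10; -1.27 to -0.61), with 92.5, 88.3 and 96.7 FPKM in 8HQ_FAC, against 152, 146 and 151 FPKM in FAC. TXN and AKR1B1 were the members with a positive interaction under each scaling, at 0.54 ± 0.04 and 0.58 ± 0.05, ranging from 0.12 to 0.91 and from 0.30 to 0.95. For NFE2L2 the interaction was -0.01 with a 95% interval of -0.13 to 0.11, and for SQSTM1 0.01 with -0.08 to 0.10, though the scalings moved these to between -0.29 and 0.36 and between -0.35 and 0.39.

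**Figure D4:**
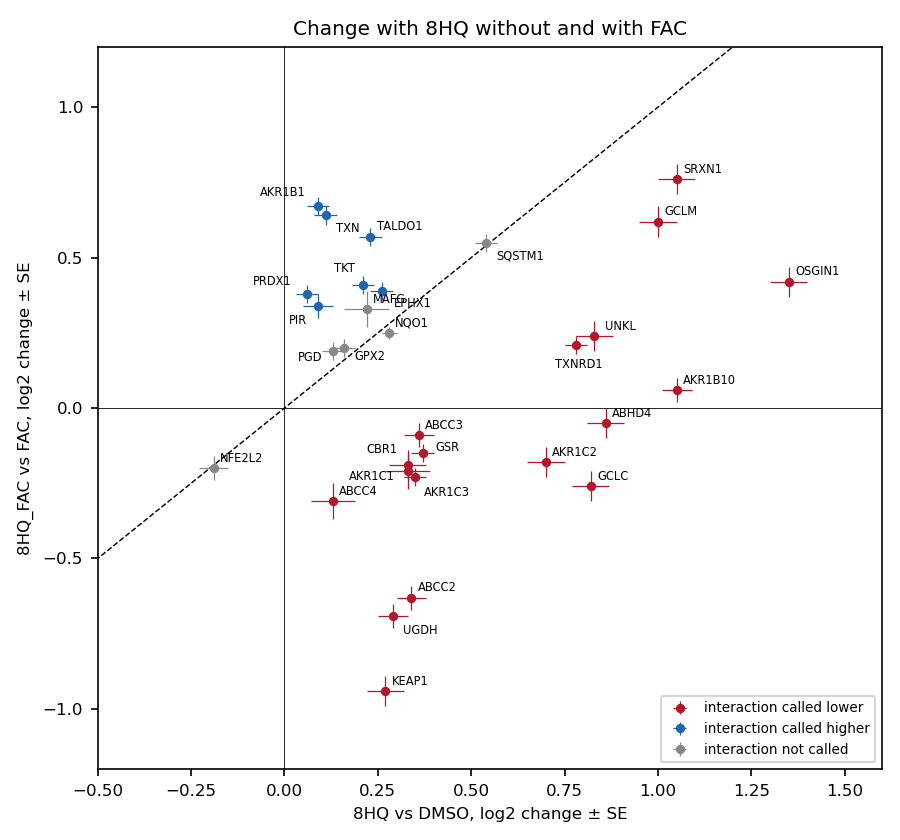
Log2 change of each tested member in 8HQ_FAC against FAC (vertical) and in 8HQ against DMSO (horizontal), each with its SE; the dashed line marks equal changes and colour gives the interaction call. Points below the line include OSGIN1 (0.42 vertical, 1.35 horizontal), GCLC (-0.26, 0.82) and KEAP1 (-0.94, 0.27), those above include AKR1B1 (0.67, 0.09) and TXN (0.64, 0.11), and SQSTM1 (0.55, 0.54) lies on it.

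Adding FAC to cells that received 8HQ took many of the raised members down. In 8HQ_FAC against 8HQ 8 members were called higher, 20 lower and 3 not called, when 26.8% of all tested genes were called higher and 57.6% lower. The medians were -0.28 for members and -0.25 for all tested genes, and the groups did not overlap for 28 members, beside 84.7% of all tested genes, so the members as a set moved about as all genes did. Under each of the 4 scalings 14 were called lower and 3 higher (AKR1B1, TKT and TXN). ABHD4 had 16.7, 18.2 and 19.2 FPKM in 8HQ_FAC, against 46.1, 47.3 and 48.0 FPKM in 8HQ (log2 change -1.34 ± 0.05, adjusted p = 1.76e-12; -1.65 to -0.92 over the scalings). OSGIN1 had 36.4, 37.7 and 42.8 FPKM in 8HQ_FAC, against 99.3, 97.3 and 96.6 FPKM in 8HQ (-1.31 ± 0.05; -1.63 to -0.89). GCLC had 32.2, 31.4 and 37.4 FPKM in 8HQ_FAC, against 83.0, 77.1 and 80.6 FPKM in 8HQ (-1.23 ± 0.05; -1.55 to -0.81). The libraries of these 3 genes lay far apart. GCLM by contrast was not called, at 12.6, 12.9 and 15.1 FPKM in 8HQ_FAC, against 14.3, 13.9 and 13.8 FPKM in 8HQ (-0.05, 95% interval -0.17 to 0.07; -0.35 to 0.37 over the scalings); without 8HQ_FAC replicate 3 it was called lower, at -0.13.

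Ratios between partner genes within a library are free of any common scaling factor, though not of length or rank effects; the pairs were picked after their values were seen, so they are descriptive. The catalytic to modifier ratio of glutamate-cysteine ligase, GCLC over GCLM, was 2.56, 2.44 and 2.48 in 8HQ_FAC, 5.81, 5.54 and 5.85 in 8HQ, 4.70, 4.83 and 4.90 in FAC and 7.26, 6.91 and 6.52 in DMSO. No groups overlapped, and all treated groups had relatively more of the modifier transcript than DMSO. TXNRD1 over its substrate TXN was 0.283 ± 0.021 in 8HQ_FAC, 0.771 ± 0.028 in 8HQ, 0.383 ± 0.0157 in FAC and 0.481 ± 0.0105 in DMSO (SD, n = 3 each). SRXN1 over its substrate PRDX1 was 0.111 ± 0.0111 in 8HQ_FAC, 0.276 ± 0.00408 in 8HQ, 0.0846 ± 0.00328 in FAC and 0.138 ± 0.00642 in DMSO. Both recycling ratios were highest in 8HQ and, as deposited, below DMSO in both groups with FAC. In 8HQ_FAC this turned with the scaling. With the length trend removed TXNRD1 changed by 0.31 and TXN by 0.22 against DMSO, and SRXN1 by 0.49 and PRDX1 by 0.36, so that neither ratio was below DMSO. Under quantile normalization SRXN1 changed by 0.16 and PRDX1 by 0.03, but TXNRD1 by -0.27 and TXN by 0.29. There TXNRD1 over TXN stayed below DMSO and only SRXN1 over PRDX1 did not. AKR1B10 over AKR1B1 was 0.431 ± 0.0357 in 8HQ_FAC, 1.34 ± 0.0293 in 8HQ, 0.661 ± 0.00677 in FAC and 0.679 ± 0.0426 in DMSO, so that AKR1B10 was the more abundant of the pair only in 8HQ. KEAP1 over NFE2L2 was lowest in DMSO, at 0.365 ± 0.0169 in 8HQ_FAC, 0.397 ± 0.0213 in 8HQ, 0.623 ± 0.0248 in FAC and 0.286 ± 0.00926 in DMSO.

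Of the other genes of the pathway, calls with 8HQ alone were found mainly among further NRF2 targets. Among 21 tested further NRF2 targets 7 were called higher and none lower by limma in 8HQ against DMSO, with 12 at an unadjusted p under 0.05. That is 33.3% called higher, beside 2.49% of all tested genes called higher and 2.41% lower. The lists too were chosen with earlier results of these data known. CYP4F11, a cytochrome P450, changed by 0.57 (adjusted p = 1.35e-05), HMOX1, heme oxygenase 1, by 0.50 (1.89e-05), ABCB6, a porphyrin transporter, by 0.34 (0.000416), and FTL, the ferritin light chain, by 0.15 (0.000623). Of 13 tested KEAP1-NRF2 partners and 12 further pentose phosphate and NADPH genes limma called 0, with 4 and 1 at an unadjusted p under 0.05; quantile normalization gave 3 calls among the partners and 0 among the NADPH genes. Of 23 further thioredoxin, peroxiredoxin and glutathione genes 1 was called, GLRX5, a mitochondrial glutaredoxin, at -0.13. At the shares of all tested genes, lists this short would often hold few calls or none.

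In 8HQ_FAC against DMSO most tested genes of these lists were called, as were most of all tested genes (27.5% higher and 56.7% lower). The further targets gave 11 higher and 7 lower, the partners 2 and 11, the thioredoxin and glutathione genes 18 and 2, and the NADPH genes 6 and 4, but after rescaling to equal sums 8 and 11, 2 and 11, 13 and 7, and 3 and 7. As shares of the tested genes of each list, the deposited values gave 52.4% higher and 33.3% lower among further targets, 15.4% and 84.6% among partners, 78.3% and 8.7% among thioredoxin and glutathione genes and 50% and 33.3% among NADPH genes. HMOX1 had 216, 217 and 248 FPKM in 8HQ_FAC, against 30, 29.7 and 28.9 FPKM in DMSO, a log2 change of 2.90. Unlike OSGIN1 or TXNRD1 it was highest in 8HQ_FAC, with 42.0, 40.3 and 44.9 FPKM in 8HQ and 70.6, 70.7 and 72.3 FPKM in FAC. A pair of transcription factors of the network moved apart: MAFF, a small MAF, changed by 1.74 and NFE2L1, a relative of NRF2, by -1.0. BACH1, a repressor that competes with NRF2 for the same elements and was singled out here after its values were seen, had 3.22, 3.70 and 3.76 FPKM in 8HQ_FAC, against 8.73, 8.12 and 8.37 FPKM in DMSO (-1.05). PRDX2, a peroxiredoxin, changed by 0.88, TXNIP, which binds and inhibits thioredoxin, by 1.3, IDH2, a mitochondrial NADPH source, by 0.63, and MTHFD2, a mitochondrial folate enzyme, by -0.73. The directions of HMOX1, MAFF, NFE2L1, BACH1, PRDX2, TXNIP, IDH2 and MTHFD2 were kept under each of the 4 scalings.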

How the data were processed

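The authors deposited FPKM per gene and library. Bowtie 0.12.2, mm8 and mm9 are named, per the submitters' processing notes. Those are mouse builds, so no coordinates are tied to the table, and the sources used here give no counter or annotation. The 27 symbols that a spreadsheet had made into dates were restored by GeneID. Depth was estimated from the spacing of low values, of which 82.5% lay within 0.05 of a whole multiple, with lengths of 2723 genes (median 19700000 reads for the first DMSO library, quartiles 15500000 and 25900000); no counting intervals were computed. Values were analysed as log2(FPKM + 1), which understates changes of low genes, for genes that reached 1 FPKM in 3 or more libraries. A limma 3.58.1 model in R 4.3.3 with 1 mean per group over all 12 libraries and a trend on the variance gave 6 comparisons, with two-sided Benjamini-Hochberg adjusted p-values over 10823 genes. The method was tested on simulated data. Within groups, libraries correlated at r of 0.9971 to 0.9979 across genes. Alternatives were 4 scalings, a pseudocount of 0.1, no filter, a filter at 5 FPKM, no trend, the 2 groups compared alone, a replicate block, and leaving out each library.

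The members and gene lists were chosen with earlier results of these data known. Values per library were given for NFE2L2, KEAP1 and MAFG, for the 8 members with the smallest adjusted p in 8HQ against DMSO, the 4 with the largest called interaction, the 3 largest rises and 3 largest falls in 8HQ_FAC against DMSO and the 3 largest changes in FAC against DMSO. From each other list up to 4 genes called in 8HQ against DMSO and up to 2 called in 8HQ_FAC against DMSO were named, those of smallest adjusted p; 1 gene that this names is not reported here. Further values per library were given with the results known. Promoter sequences are from RefSeq (GRCh38.p14). Tables were made with pandas 2.3.3 and numpy 2.4.6, and figures with matplotlib 3.10.9, under Python 3.11.15.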

Additional observations from a re-analysis of the deposited data

Results flagged for a closer look

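The change with 8HQ differed between cells with and without FAC for 25 of the 31 tested members, by the test of that difference itself in limma (8HQ_FAC against FAC minus 8HQ against DMSO, log2 scale). Of the 31, 58.1% were called lower and 22.6% higher. These shares lie near those of all tested genes, 53.3% lower and 23.4% higher, so the count shows nothing particular to the members. Called lower under each of the 4 scalings as well were KEAP1 (-1.21), GCLC (-1.08), AKR1B10 (-0.99), ABCC2 (-0.98), UGDH (-0.98), OSGIN1 (-0.92), ABHD4 (-0.91), AKR1C2 (-0.87), AKR1C3 (-0.59), UNKL (-0.59), TXNRD1 (-0.58) and GSR (-0.52). AKR1C1 (-0.54), CBR1 (-0.52), ABCC3 (-0.45), ABCC4 (-0.44), GCLM (-0.38) and SRXN1 (-0.29) were called lower on the deposited scale, and at least 1 scaling ended the call or turned the direction. AKR1B1 (0.58) and TXN (0.54) were called higher under each scaling. TALDO1 (0.34), PRDX1 (0.32), PIR (0.24), TKT (0.20) and EPHX1 (0.14) were called higher on the deposited scale, and at least 1 scaling turned each of them. The part of the blood cell markers, some of which differ with FAC, was not tested. Nor was that of the depth and the FPKM sum, which differ mainly in 8HQ_FAC.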

How the results depend on the processing

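Of 22 alternatives, the 4 scalings moved the results most, and they did so in comparisons with 8HQ_FAC. The 25 rises in 8HQ against DMSO ran from 23 to 26 when a library was left out, and its 1 fall, NFE2L2, from 0 to 1. Leaving out a library gave 9 to 12 higher and 10 to 11 lower in FAC against DMSO, 17 to 18 and 9 to 11 in 8HQ_FAC against DMSO, 17 to 18 and 11 to 12 in 8HQ_FAC against FAC, 7 to 8 and 20 to 21 in 8HQ_FAC against 8HQ, and 7 to 8 higher and 18 lower each time in the interaction. Median centring gave 5 lower in 8HQ_FAC against DMSO, 26 higher and 3 lower against FAC, 16 higher against 8HQ and 13 higher in the interaction. Rescaling to equal sums gave 7 higher and 18 lower in 8HQ_FAC against DMSO, 10 higher against FAC, 4 higher against 8HQ and 2 higher in the interaction. Quantile normalization gave 4 higher in the interaction, and removing the length trend 7 lower in 8HQ_FAC against FAC. A replicate block gave 25 higher and 1 lower in 8HQ against DMSO and 18 higher and 10 lower in 8HQ_FAC against DMSO, where it ended the call of GSR (-0.06) and added AKR1C1 (0.10); no other call changed. Same-numbered libraries did not deviate together (r -0.076 to 0.048 over 18 pairs), so the numbers were not taken as pairs. Among the other lists, quantile normalization gave 2 thioredoxin and glutathione genes higher in 8HQ against DMSO, where none was as deposited, and median centring gave in 8HQ_FAC against DMSO 18 higher and 1 lower further targets, 4 and 7 partners, 23 and 0 thioredoxin and glutathione genes and 10 and 2 NADPH genes. Pseudocount, filters and trend turned no direction. Depth limits the precision of ME1 and TRIM16L most, and without counts no interval for it could be given. Signs turned as follows (log2 change), where the change was called as deposited or under that scaling. Turns of changes called in neither are left out. The cause was not tested.
In FAC against DMSO: length trend removed TXN -0.01.
In 8HQ_FAC against DMSO: median centring GCLC 0.01, GSR 0.35, TXNRD1 0.38, ABCC3 0.15, ABCC4 0.26; length trend removed GSR 0.15, GPX2 -0.15, TXNRD1 0.31, EPHX1 -0.02, ABCC3 0.23, ABCC4 0.37; quantile GPX2 -0.35, PGD -0.02, NQO1 -0.33, AKR1C1 -0.35, AKR1C3 -0.10, EPHX1 -0.07, ABCC3 0.09, ABCC4 0.18; equal sums GPX2 -0.10, PGD -0.04, NQO1 -0.16, AKR1B10 -0.07, AKR1C1 -0.23, AKR1C3 -0.13, EPHX1 -0.21, OSGIN1 -0.28, UNKL -0.05.
In 8HQ_FAC against FAC: median centring NFE2L2 0.16, GCLC 0.11, GSR 0.22, AKR1C1 0.16, AKR1C2 0.19, AKR1C3 0.14, CBR1 0.18, ABCC3 0.28, ABCC4 0.06, ABHD4 0.32; length trend removed GCLC 0.01, GSR 0.04, GPX2 -0.11, AKR1B10 -0.11, AKR1C1 0.32, AKR1C2 0.09, ABCC3 0.36, ABCC4 0.18, ABHD4 0.17; quantile GPX2 -0.32, PRDX1 -0.19, PGD -0.09, NQO1 -0.20, CBR1 0.01, ABCC3 0.21, ABCC4 0.03, ABHD4 0.14; equal sums GPX2 -0.09, TXNRD1 -0.08, PGD -0.10, NQO1 -0.04, AKR1B10 -0.22, UNKL 0.00.
In 8HQ_FAC against 8HQ: quantile SQSTM1 -0.36, GCLM 0.24, GPX2 -0.45, PRDX1 -0.02, PGD -0.15, TALDO1 -0.15, ABCC4 0.09; equal sums SQSTM1 -0.29, GPX2 -0.26, PGD -0.16, TALDO1 -0.02, CBR1 -0.26, PIR -0.05; median centring GCLM 0.37, NQO1 0.31, AKR1C1 0.19, AKR1C3 0.27, EPHX1 0.28, ABCC4 0.14; length trend removed GCLM 0.37, GPX2 -0.30, NQO1 0.07, AKR1C1 0.35, ABCC4 0.26.
In the interaction: median centring NFE2L2 0.36, SRXN1 0.08, NQO1 0.35; length trend removed NFE2L2 0.15, GCLM 0.01, GPX2 -0.26, NQO1 0.14, ABCC3 0.02, ABCC4 0.06; quantile SQSTM1 -0.35, GPX2 -0.41, PRDX1 -0.24, PGD -0.21, TALDO1 -0.03, TKT -0.16, EPHX1 -0.03; equal sums SQSTM1 -0.27, GPX2 -0.25, PGD -0.22, TKT -0.08, EPHX1 -0.14, PIR -0.03.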
